A study of Mus musculus with 8 samples.

Results

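Fc receptors bind the constant part of antibodies, and 6 mouse genes for them were followed here in 4T1 tumors: the activating IgG receptors Fcgr1, Fcgr3 and Fcgr4, their signaling subunit Fcer1g, the inhibitory IgG receptor Fcgr2b, and Fcgrt, which encodes the neonatal Fc receptor. The members were chosen by name, as the rows of the gene table with these symbols, and are 6 of 54532 genes. All 6 were among the 18511 genes that passed the filter on low counts. The tumors came from female BALB/cJ mice, 6 weeks old at injection, that carried subcutaneous tumors of 4T1-FLuc (4T1 in the sample labels), a mouse line used as a model of triple-negative breast cancer. The study compared a saline group with a group that received mAb-DXd/IMQ by vein (16 mg/kg, 5 courses, 4 days apart), in order to ask how the conjugate altered the transcriptome of the tumor. The conjugate, HumCD276-Dxd/IMQ in the sample labels, is a humanized antibody against CD276 that carries DXd, a topoisomerase 1 inhibitor, and IMQ, an agonist of Toll-like receptors. Each group had 4 tumors, each from a different mouse and taken at the study endpoint, and the labels name the control treatment both as saline and as PBS. Whole tumors were sequenced, so that the RNA came from 4T1 cells and from the cells of the host. The study reported a far smaller mean tumor volume at the endpoint with mAb-DXd/IMQ than with saline. It also reported extensive death of cancer cells in the treated tumors. Tumor size and cell death thus went with treatment, and their part in the values below was not tested. Total gene counts ran from 34591912 to 69582375 per tumor, and 3 counts corresponded to between 0.0439 and 0.0843 CPM, the count scaled to the size of its library.

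Activating Fc gamma receptors on macrophages, monocytes, neutrophils and NK cells bind IgG on a target cell and signal through the ITAM motif of the common gamma chain, which drives phagocytosis, killing and cytokine release. Fcgr2b carries an inhibitory ITIM motif instead and sets the threshold for that signal. Fcgrt pairs with beta-2 microglobulin and binds IgG in acidic endosomes, which returns antibody to the cell surface and spares it from lysosomes.

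Fcgr2b, Fcgr4 and Fcgr3 lay beside each other on chromosome 1, at chr1:170958617-170976547, chr1:171018920-171029761 and chr1:171051174-171064935, and Fcer1g lay at chr1:171229572-171234365 on the same chromosome. Fcgr1 lay apart at chr3:96282909-96293969 and Fcgrt at chr7:45092990-45103851. These coordinates were those of the gene table and equaled the GRCm38 annotation for 6 of 6 members. The RefSeq promoters of the Fcgr genes are shown, from 250 bases before to 50 bases after the RefSeq start in build GRCm38.p6, 5′ to 3′ on the strand of the gene. The table held an entry for each of the 6 members, with 2 for Fcgr3, of which the first listed is shown. The RefSeq start need not be the end of the gene in the gene table, and for Fcgr2b and Fcgr3 the window lies inside the gene as given there. The windows lie at chr3:96293920-96294219 for Fcgr1 (minus strand), chr1:170976022-170976321 for Fcgr2b (minus strand), chr1:171059354-171059653 for Fcgr3 (minus strand) and chr1:171018676-171018975 for Fcgr4 (plus strand). Capitals mark matches, on either strand, to GAGGAA, a core bound by the myeloid factor PU.1 and read as TTCCTC on the other strand, to TTCNNNGAA, the form of the interferon-gamma activated site, and to GAAANNGAA, a form of the interferon-stimulated response element read as TTCNNTTTC on the other strand.
Fcgr1: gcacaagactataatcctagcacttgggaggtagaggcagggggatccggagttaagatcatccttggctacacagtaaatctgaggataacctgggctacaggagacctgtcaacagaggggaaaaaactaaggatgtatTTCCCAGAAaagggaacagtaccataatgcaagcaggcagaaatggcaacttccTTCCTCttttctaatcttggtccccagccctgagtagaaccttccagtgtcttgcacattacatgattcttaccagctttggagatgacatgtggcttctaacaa
Fcgr2b: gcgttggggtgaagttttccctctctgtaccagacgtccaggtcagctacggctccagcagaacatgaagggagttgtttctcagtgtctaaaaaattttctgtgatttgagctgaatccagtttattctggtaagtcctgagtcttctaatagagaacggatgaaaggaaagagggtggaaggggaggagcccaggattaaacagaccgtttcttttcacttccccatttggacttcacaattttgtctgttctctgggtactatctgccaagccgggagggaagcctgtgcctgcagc
Fcgr3: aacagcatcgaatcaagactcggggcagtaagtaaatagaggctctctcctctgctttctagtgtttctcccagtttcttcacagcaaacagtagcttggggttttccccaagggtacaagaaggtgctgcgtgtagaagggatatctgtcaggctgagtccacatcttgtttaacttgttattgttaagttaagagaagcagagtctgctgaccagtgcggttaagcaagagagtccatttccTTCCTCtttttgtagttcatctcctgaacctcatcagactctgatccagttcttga
Fcgr4: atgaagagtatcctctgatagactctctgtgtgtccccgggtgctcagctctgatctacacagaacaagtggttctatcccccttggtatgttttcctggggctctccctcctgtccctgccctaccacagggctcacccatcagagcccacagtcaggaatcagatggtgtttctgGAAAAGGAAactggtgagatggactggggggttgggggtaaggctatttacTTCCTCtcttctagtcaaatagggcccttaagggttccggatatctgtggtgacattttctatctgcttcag

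GAGGAA or its reverse complement was found in the promoters of Fcgr1, Fcgr3 and Fcgr4, which are 3 of 6 members, and in 28.3% of 27025 gene promoters of this length. The matches began at -55 in Fcgr1, -6 in Fcgr3 and -22 in Fcgr4, counted from the RefSeq start of each window. TTCNNNGAA was found only in Fcgr1, at -109, and in 8.47% of all promoters. GAAANNGAA was found only in Fcgr4, at -73, and in 8.57% of all promoters. The windows of Fcgr2b, Fcer1g and Fcgrt held none of these letters. A match describes the sequence and was not tested for binding, and the reference is not the BALB/cJ genome.

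None of the 6 genes passed the test for a difference between the groups, although the log2 fold change of each lay below 0. The clearest separations were those of Fcgr2b and Fcgr4, whose 4 mAb-DXd/IMQ tumors all lay below the 4 saline tumors. To be called, a gene needed an adjusted p below 0.05 and a log2 fold change beyond 0.58 in either direction, which 197 of 18511 genes (1.06%) met in edgeR's quasi-likelihood test with Benjamini-Hochberg adjustment, 101 higher and 96 lower. At an unadjusted p under 0.05 there were 3 of 6 members, against 18.9% of all tested genes. Groups without overlap and lower in mAb-DXd/IMQ were found for 2 of 6 members and for 7.1% of all tested genes. With other tools 2 of 6 members were called by DESeq2, which called 4.25% of genes, and 0 of 6 by limma-voom (0.94% of genes), by edgeR's newer quasi-likelihood method (1.57%) and by edgeR's glmTreat (0.0378%). A p that misses the threshold does not show that the levels were equal.

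Among the activating receptors, Fcgr1 (ENSMUSG00000015947) encodes the high-affinity IgG receptor. Its level was 48.6, 115, 88.6 and 95.5 CPM (on libraries scaled by edgeR's trimmed mean of M values) in saline tumors 1 to 4, and 85.7, 72.2, 81.0 and 60.5 CPM in mAb-DXd/IMQ tumors 1 to 4. The mAb-DXd/IMQ tumors lay within the range of the saline tumors, of which tumor 1 was the lowest and tumor 2 the highest of all 8. The log2 fold change was -0.21 (SE 0.22, 95% interval -0.70 to 0.27, edgeR with Benjamini-Hochberg adjusted p = 0.645). It was -0.05 without saline tumor 2 and -0.41 without saline tumor 1.

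Fcgr3 (ENSMUSG00000059498), a low-affinity receptor and the main one of mouse NK cells, had 92.9, 216, 142 and 160 CPM in saline tumors 1 to 4 and 127, 106, 109 and 99.9 CPM in mAb-DXd/IMQ tumors 1 to 4. Saline tumors 2, 3 and 4 lay above every mAb-DXd/IMQ tumor, and saline tumor 1 below every one. Its log2 fold change was -0.47 (SE 0.21, 95% interval -0.93 to -0.0088, edgeR with Benjamini-Hochberg adjusted p = 0.256). Without saline tumor 2 it was -0.26, and without saline tumor 1 it was -0.65.

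Fcgr4 (ENSMUSG00000059089), a receptor of intermediate affinity on macrophages, monocytes and neutrophils, had 71.9, 134, 95.6 and 109 CPM in saline tumors 1 to 4 and 63.3, 64.8, 64.7 and 62.3 CPM in mAb-DXd/IMQ tumors 1 to 4. The groups did not overlap, and the values of mAb-DXd/IMQ lay within a narrow band, with an SD of 1.21 CPM against 26.0 CPM in saline (n = 4 in each group). For Fcgr4 the log2 fold change was -0.69 (SE 0.16, 95% interval -1.04 to -0.33), and the edgeR p with Benjamini-Hochberg adjustment, 0.0602, missed the threshold. It passed with an adjusted p of 0.00508 in DESeq2, of 0.0335 without the filter on low counts (where 1.14% of genes were called) and of 0.0289 without saline tumor 1 (1.08% of genes), all by the Benjamini-Hochberg method and the latter pair in edgeR. Over its alternatives the adjusted p of Fcgr4 ran from 0.00508 to 1.00, the highest with glmTreat, which tests against the fold limit itself.

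Fcer1g (ENSMUSG00000058715), the common gamma chain through which the activating receptors signal, had 46.6, 86.2, 58.4 and 61.4 CPM in saline tumors 1 to 4 and 57.3, 60.1, 57.9 and 58.9 CPM in mAb-DXd/IMQ tumors 1 to 4. The mAb-DXd/IMQ tumors lay inside the saline range, and the gamma chain was the member with the smallest difference. For Fcer1g the log2 fold change was -0.11 (SE 0.16, 95% interval -0.46 to 0.25, edgeR with Benjamini-Hochberg adjusted p = 0.764). Its sign rested on saline tumor 2, without which it was 0.08.

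The inhibitory receptor Fcgr2b (ENSMUSG00000026656) had 191, 478, 250 and 316 CPM in saline tumors 1 to 4 and 170, 169, 190 and 174 CPM in mAb-DXd/IMQ tumors 1 to 4. The groups did not overlap, but the gap was small, from 190.3 CPM in the highest mAb-DXd/IMQ tumor to 191.1 CPM in the lowest saline tumor. The log2 fold change was -0.81 (SE 0.23, 95% interval -1.32 to -0.30), the most negative among the members, and the edgeR p with Benjamini-Hochberg adjustment was 0.0988. Adjusted p was 0.0139 in DESeq2 and 0.0435 in edgeR without saline tumor 1, and ran from 0.0139 to 1.00 over the alternatives. Without saline tumor 2 the log2 fold change was -0.52.

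The recycling receptor Fcgrt (ENSMUSG00000003420) had 32.4, 127, 55.4 and 56.4 CPM in saline tumors 1 to 4 and 50.3, 41.5, 45.3 and 39.7 CPM in mAb-DXd/IMQ tumors 1 to 4. Saline tumor 2 lay far above the other saline tumors, and saline tumor 1 below every mAb-DXd/IMQ tumor. Its log2 fold change was -0.62 (SE 0.32, 95% interval -1.33 to 0.097, edgeR with Benjamini-Hochberg adjusted p = 0.333), and -0.12 without saline tumor 2.

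**Figure D1:**
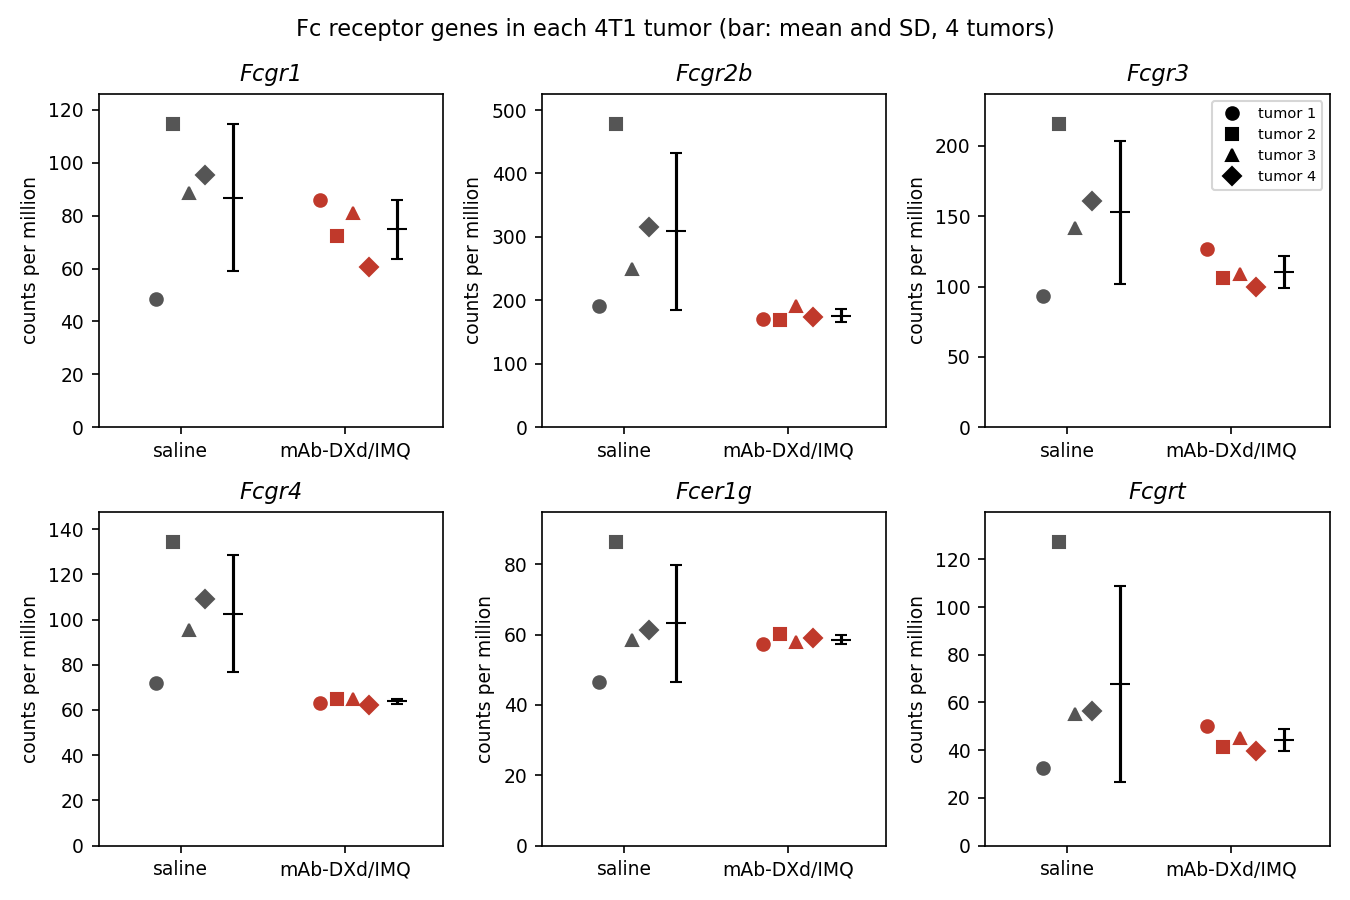
Level of each Fc receptor gene in CPM (vertical axis, from 0) in the saline and mAb-DXd/IMQ tumors, with a marker shape per tumor number (numbers do not pair tumors) and a bar for the mean and SD of 4 tumors. Saline tumor 2 is the highest for 6 of 6 genes, and the mAb-DXd/IMQ tumors of Fcgr4 lie between 62.3 and 64.8.

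**Figure D2:**
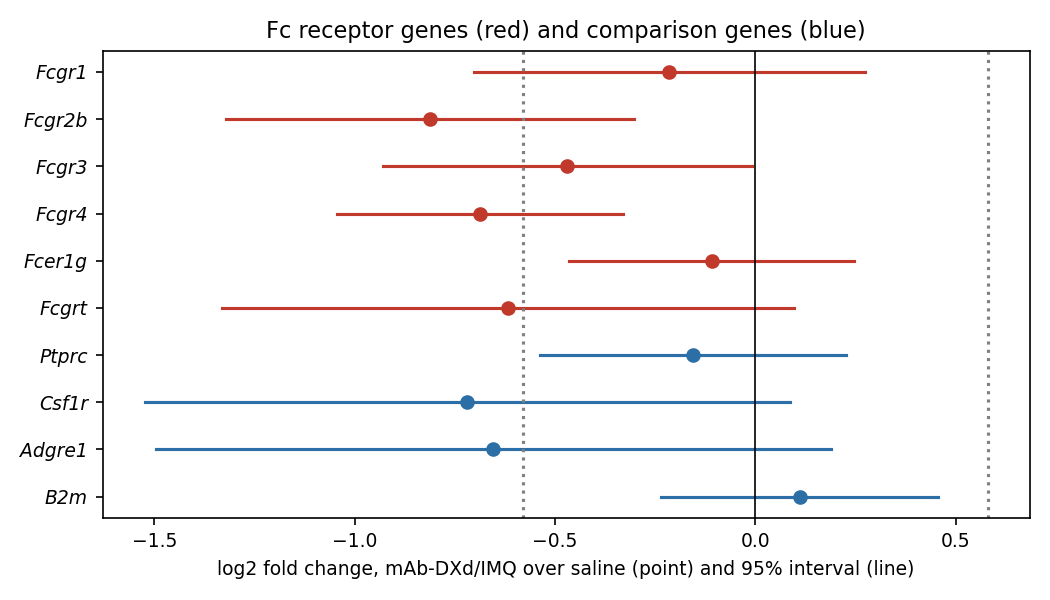
Log2 fold change of mAb-DXd/IMQ over saline (point) with its 95% interval (line) for the Fc receptor genes in red and for Ptprc, Csf1r, Adgre1 and B2m in blue, where dotted lines mark the fold limit of 0.58 on both sides. The intervals of Fcgr2b, Fcgr3 and Fcgr4 lie below 0, and those of Fcgr1, Fcer1g and Fcgrt hold 0.

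The members varied less between mAb-DXd/IMQ tumors than between saline tumors. The SD of log2 CPM over 4 tumors was smaller in mAb-DXd/IMQ than in saline for 6 of 6 members, whereas it was smaller in mAb-DXd/IMQ for 36.0% of 18511 tested genes. The median SD of the members was 0.52 in saline and 0.11 in mAb-DXd/IMQ, beside 0.23 and 0.30 for all tested genes. This was not particular to the receptors, since the SD was smaller in mAb-DXd/IMQ for 14 of 15 macrophage and monocyte markers too (median SD 0.71 in saline and 0.28 in mAb-DXd/IMQ). The SD was 0.38 and 0.03 for Fcgr4, 0.37 and 0.03 for Fcer1g, and 0.56 and 0.08 for Fcgr2b, in saline and mAb-DXd/IMQ. The count of members with the smaller SD in mAb-DXd/IMQ was 5 to 6 when each tumor was left out in turn, and the difference in spread was seen in the data first and was not tested.

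**Figure D3:**
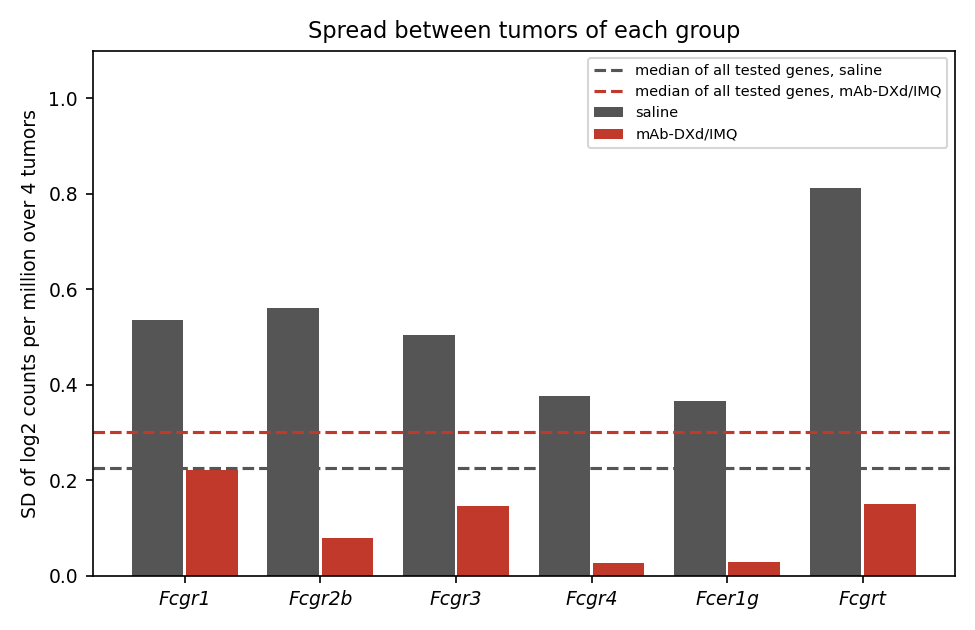
SD of log2 CPM over the 4 tumors of each group (bars, vertical axis from 0) for each Fc receptor gene, with dashed lines for the median SD of all tested genes in each group. The mAb-DXd/IMQ bar is the lower for 6 of 6 genes, while the all-gene median is the higher in mAb-DXd/IMQ (0.30 against 0.23).

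Levels of different genes were compared per kilobase of gene length, as CPM per kilobase. In saline the order was Fcgr3 at 88.0 ± 29.2, Fcgr4 at 81.7 ± 20.7, Fcer1g at 72.3 ± 19.0, Fcgr2b at 53.3 ± 21.4, Fcgr1 at 33.5 ± 10.7 and Fcgrt at 32.3 ± 19.5 (SD, n = 4). Each gene in that order differed from the next by less than the larger SD of the pair. In mAb-DXd/IMQ the order was Fcer1g at 67.0 ± 1.38, Fcgr3 at 63.5 ± 6.63, Fcgr4 at 50.8 ± 0.966, Fcgr2b at 30.4 ± 1.69, Fcgr1 at 28.9 ± 4.29 and Fcgrt at 21.02 ± 2.23 (SD, n = 4). There Fcer1g and Fcgr3, and Fcgr2b and Fcgr1, differed by less than the larger SD, and the other neighbors by more. These levels depend on the length used, which for Fcgr2b was 5790 bases in the gene table and 3544 bases for its longest annotated protein-coding transcript.

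Within a tumor, the balance of activating to inhibitory receptor was taken as the summed level per kilobase of Fcgr1, Fcgr3 and Fcgr4 over that of Fcgr2b. This ratio was 3.93, 3.33, 4.44 and 3.96 in saline tumors 1 to 4 and 5.32, 4.81, 4.43 and 4.33 in mAb-DXd/IMQ tumors 1 to 4. The groups overlapped, with the highest saline tumor above the lowest pair of mAb-DXd/IMQ tumors, and the log2 ratio was 1.96 ± 0.17 in saline and 2.23 ± 0.14 in mAb-DXd/IMQ (SD, n = 4), a difference of 0.27. Taken on CPM, the ratio ran from 0.97 to 1.30 in saline and from 1.28 to 1.62 in mAb-DXd/IMQ. The log2 difference was then 0.32, so that the level of such a ratio or share depends on the gene lengths used. Fcgr3 over Fcgr2b alone ran from 1.504 to 1.89 in saline and from 1.91 to 2.48 in mAb-DXd/IMQ without overlap, while Fcgr4 over Fcgr2b differed by 0.08 on the log2 scale. Fcgr4 and Fcgr2b thus kept nearly the same ratio to each other in both groups, while the mean ratios of Fcgr1 and Fcgr3 to Fcgr2b were higher, by 0.57 (with groups that overlapped) and 0.32 on the log2 scale. As a share of the summed Fcgr level, Fcgr2b made up 20.5% ± 1.94 in saline and 17.6% ± 1.34 in mAb-DXd/IMQ (SD, n = 4). The ratio of Fcer1g to the summed activating receptors was 0.325 to 0.412 in saline and 0.419 to 0.516 in mAb-DXd/IMQ, again without overlap. These ratios were described and carry no p. The plan named only the summed activating receptors over Fcgr2b, whose groups overlapped. Fcgr3 over Fcgr2b and Fcer1g over the activating receptors were added to it, and neither was set beside ratios of other genes.

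**Figure D4:**
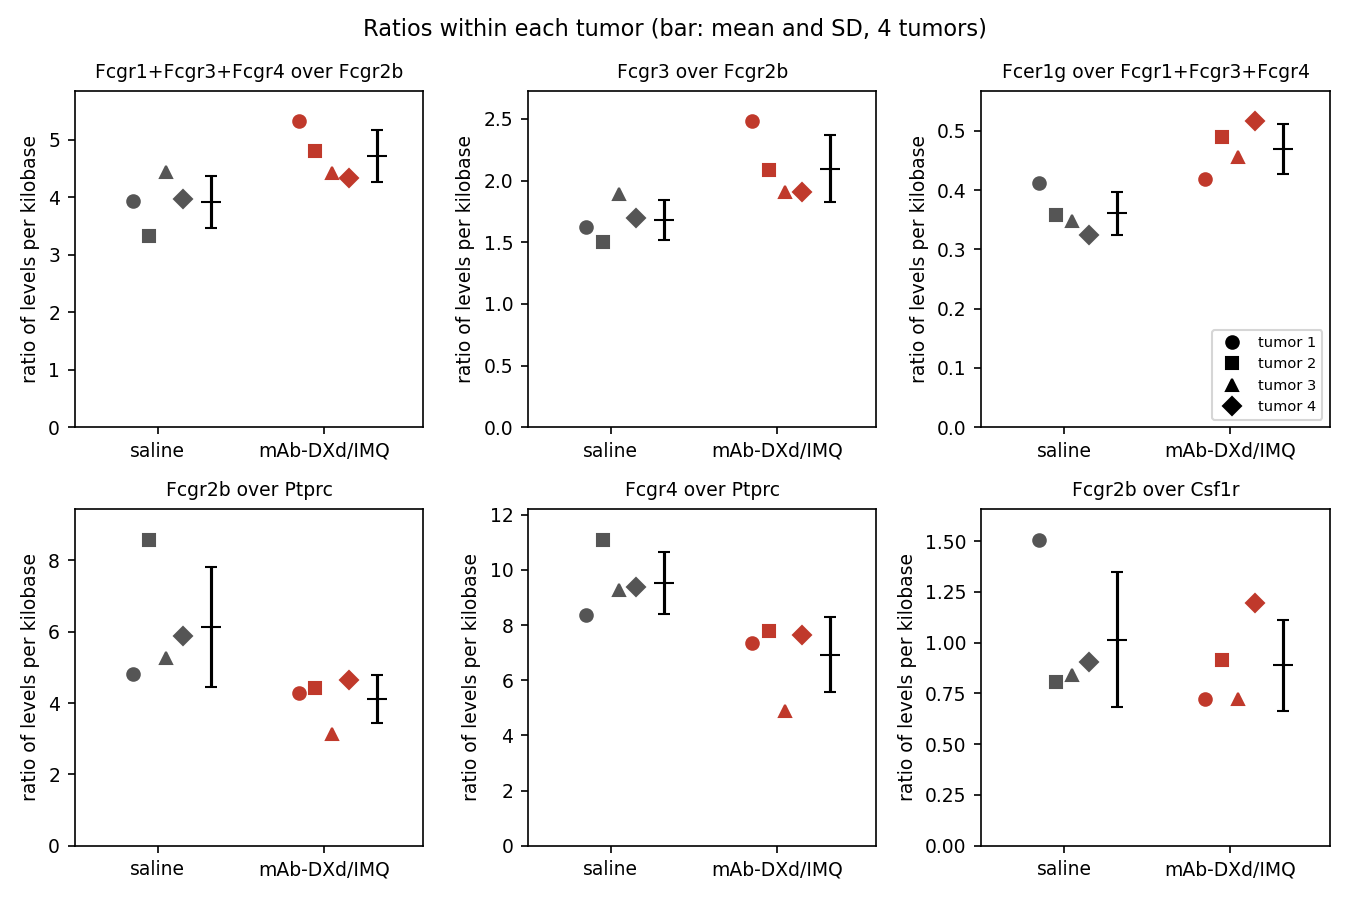
Ratios of levels per kilobase within each tumor (vertical axes, from 0) for saline and mAb-DXd/IMQ, with a marker shape per tumor number and a bar for the mean and SD of 4 tumors. Fcgr3 over Fcgr2b and Fcer1g over the activating receptors lie higher in every mAb-DXd/IMQ tumor, Fcgr2b and Fcgr4 over Ptprc lie lower, and Fcgr2b over Csf1r overlaps between the groups.

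The receptors are expressed by myeloid cells, and markers of these cells varied in the same tumors. Of 15 macrophage and monocyte markers, all 15 were tested, 14 had a log2 fold change below 0, and 1 passed the test: Cd163, a scavenger receptor, fell from 8.72 ± 1.82 to 3.88 ± 1.05 CPM (SD, n = 4, log2 fold change -1.17, edgeR with Benjamini-Hochberg adjusted p = 0.0450). Cd163 was called in 0 of 8 fits with a tumor left out (edgeR with Benjamini-Hochberg adjusted p from 0.0608 to 0.134). The median log2 fold change of the list was -0.44, that of the 6 receptors -0.54, and that of all tested genes 0.02. The summed level of the list was 1372, 7016, 3176 and 3880 CPM in saline tumors 1 to 4 and 3853, 2832, 3552 and 2661 CPM in mAb-DXd/IMQ tumors 1 to 4, so that saline tumors 1 and 2 were the lowest and the highest, as for Fcgr1, Fcgr3, Fcer1g and Fcgrt. The most abundant gene of the list was Lyz2 (log2 fold change -0.04), and no marker of it was at 3 counts or fewer in every tumor. Csf1r, the receptor that maintains macrophages, had 107, 501, 250.9 and 294 CPM in saline tumors 1 to 4 and 199, 156, 223 and 123 CPM in mAb-DXd/IMQ tumors 1 to 4. Csf1r, Adgre1 and Mrc1 had log2 fold changes of -0.72, -0.65 and -1.37 and Ly6c2, a marker of inflammatory monocytes, one of 0.79, none of which passed the test. Without saline tumor 2 they were -0.31 for Csf1r, -0.32 for Adgre1 and -0.90 for Mrc1. Mrc1 was called by DESeq2, by edgeR's newer quasi-likelihood method, and in edgeR without the filter on low counts or without saline tumor 1. Fewer cells of a type and less RNA per cell cannot be told apart in bulk tumors, and the part of the macrophage markers in the receptor values was not tested.

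Relative to Csf1r, no member separated the groups. On the log2 scale the mean ratio to Csf1r differed between mAb-DXd/IMQ and saline by 0.40 for Fcgr1, -0.17 for Fcgr2b, 0.14 for Fcgr3, -0.10 for Fcgr4, 0.48 for Fcer1g and 0.11 for Fcgrt. The sign turned for Fcgr2b without saline tumor 1 (0.032), for Fcgr3 without saline tumor 2 (-0.0022), and for Fcgr4 without saline tumor 1 (0.155) or mAb-DXd/IMQ tumor 3 (0.025). Relative to Ptprc, the pan-leukocyte antigen CD45, Fcgr2b ran from 4.83 to 8.58 in saline and from 3.12 to 4.65 in mAb-DXd/IMQ, and Fcgr4 from 8.37 to 11.1 and from 4.90 to 7.79, both without overlap, while the other 4 members overlapped. The ratios to Csf1r and Ptprc carry no p and were not set beside those of all tested genes. Those to Csf1r were planned, and those to Ptprc were added to the plan. Ptprc itself had 155 ± 22.9 CPM in saline and 140 ± 35.5 CPM in mAb-DXd/IMQ (SD, n = 4, log2 fold change -0.16, edgeR with Benjamini-Hochberg adjusted p = 0.676).

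Markers of other cells that carry Fc receptors were measured in the same way. Of 8 neutrophil markers 7 were tested, with 1 called lower, Csf3r (log2 fold change -0.80, edgeR with Benjamini-Hochberg adjusted p = 0.0402), and a median of -0.80. Csf3r was called with mAb-DXd/IMQ tumor 1 left out and not with any of the other 7 tumors left out (edgeR with Benjamini-Hochberg adjusted p from 0.0428 to 0.134). S100a9 had -1.81 and Mmp9, the most abundant per kilobase over all 8 tumors although S100a9 was higher in saline, 0.82, neither called. S100a9 was -1.18 without saline tumor 1 and Mmp9 0.48 without mAb-DXd/IMQ tumor 3, and DESeq2 called S100a9. The summed neutrophil level was 576, 229, 532 and 282 CPM in saline tumors 1 to 4 and 563, 376, 832 and 356 CPM in mAb-DXd/IMQ tumors 1 to 4, an order unlike that of the receptors. Most of this sum was Mmp9, and without it, a choice made after seeing the data, the sum was 227, 86.1, 93.3 and 127 CPM in saline and 34.8, 49.98, 53.2 and 70.3 CPM in mAb-DXd/IMQ, lower without overlap.

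Of 5 NK markers 4 were tested, all with log2 fold changes above 0 and none called by edgeR's quasi-likelihood test, with a median of 0.77. Prf1, the pore protein of killer cells and the most abundant of them, had 0.95, and Klra8 was at 3 counts or fewer in every tumor. Prf1 was called by DESeq2 (0.94) and, in edgeR, without saline tumor 1 (1.37). The summed NK level was 39.9, 18.5, 22.1 and 24.7 CPM in saline tumors 1 to 4 and 45.8, 46.4, 47.1 and 54.2 CPM in mAb-DXd/IMQ tumors 1 to 4, without overlap. Most of this sum was Prf1, whose own groups overlapped, with 32.9 CPM in saline tumor 1 and 32.1 CPM in mAb-DXd/IMQ tumor 3.

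For 6 mast cell and basophil markers, all tested, the median was -2.30 and Cpa3, a mast cell protease, fell from 16.8 ± 10.1 to 2.35 ± 1.26 CPM (SD, n = 4, edgeR with Benjamini-Hochberg adjusted p = 0.0433). Cpa3 was called with saline tumor 2 left out and not with any other tumor left out (edgeR with Benjamini-Hochberg adjusted p from 0.0112 to 0.143), and limma-voom did not call it. Mcpt4, the most abundant of that list per kilobase in saline but not in mAb-DXd/IMQ, had -2.21 and Mcpt8 0.93 (0.44 without mAb-DXd/IMQ tumor 3), neither called, and the summed level was 79.5, 25.2, 62.1 and 80.7 CPM in saline tumors 1 to 4 and 19.8, 28.4, 26.2 and 27.1 CPM in mAb-DXd/IMQ tumors 1 to 4. The part of these markers in the receptor values was not tested.

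None of the 7 dendritic cell markers was called by edgeR's quasi-likelihood test (median -1.03, Itgax 0.20, Clec9a -1.53), nor any of 5 tested B and plasma cell markers (median -0.12, Sdc1 0.31, Pax5 2.25, Mzb1 -3.03). Mzb1 was -0.96 without saline tumor 4, and Clec9a was -0.97 without saline tumor 2 and called without saline tumor 1. DESeq2 called Pax5 (2.28). None of 4 tested endothelial markers was called by edgeR's quasi-likelihood test (median 0.41, Cdh5 0.26, Tek 0.67), nor any of 5 epithelial markers (median 0.17, Krt18 0.17, Krt14 1.04). All values of this paragraph are log2 fold changes.

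Of 9 genes for antibody chains 5 were tested and 2 were called lower, with a median log2 fold change of -4.30. Only Ighg1 among the 5 encodes an IgG heavy chain, the ligand of the IgG receptors, and the heavy chains of IgA and IgM were not called. Of the IgG heavy chains that were not tested, Ighg2c had 34.9 CPM and Ighg3 59.6 CPM in saline tumor 4. The highest level of either in another tumor was 0.985 CPM (Ighg2c in saline tumor 3). Ighg1, the heavy chain constant region of IgG1, had 1.42, 47.3, 2.02 and 31.96 CPM in saline tumors 1 to 4 and 0.516, 0.257, 0 and 0.197 CPM in mAb-DXd/IMQ tumors 1 to 4. The groups did not overlap, and the saline tumors differed widely, with tumors 2 and 4 high. For Ighg1 the log2 fold change was -6.38 (SE 1.26, edgeR with Benjamini-Hochberg adjusted p = 0.0409). Igkc, the kappa light chain, fell from 39.6 ± 59.4 to 0.941 ± 0.329 CPM (SD, n = 4, log2 fold change -5.40, edgeR with Benjamini-Hochberg adjusted p = 0.0489), and Igha, the heavy chain of IgA, had a log2 fold change of 0.33. Both were called with saline tumor 1 left out and not with any of the other 7 left out (edgeR with Benjamini-Hochberg adjusted p from 0.0254 to 0.122 for Ighg1 and from 0.0294 to 0.132 for Igkc). Without saline tumor 4 the log2 fold change of Igkc was -3.44, and limma-voom called neither gene. That of Igha ran from 0.026 to 0.55 with a tumor left out. These transcripts measure antibody made in the tumor by mouse cells and do not measure the administered conjugate.

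Other Fc and Fc-like receptors were a list of 13, of which 8 were tested and 1 was called higher, with a median log2 fold change of -0.48. Fcrl6, an Fc-receptor-like protein of lymphocytes, rose from 0.589 ± 0.543 to 3.87 ± 1.71 CPM (SD, n = 4, log2 fold change 2.73, edgeR with Benjamini-Hochberg adjusted p = 0.0458). Fcrl6 was called with saline tumor 2 left out and not with any of the other 7 left out (edgeR with Benjamini-Hochberg adjusted p from 0.0118 to 0.153). Ms4a2, the beta chain that joins Fcer1g in the IgE receptor of mast cells and basophils, had -2.51 (edgeR with Benjamini-Hochberg adjusted p = 0.107). Trim21, a cytosolic antibody receptor and the most abundant of the list per kilobase over all 8 tumors (Fcrlb was higher in saline), had -0.18. With a tumor left out Trim21 ran from -0.27 to -0.0073.

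Of 10 genes for signaling adaptors, not all with an ITAM, and for receptors that use them, 8 were tested. By edgeR's quasi-likelihood test 0 were called, with a median log2 fold change of -0.21. Tyrobp, an adaptor that works like the gamma chain and was the most abundant, had -0.19, Ncr1, an NK receptor that signals through Fcer1g and Cd247, had 0.64, and Cd247, the CD3 zeta chain, had -1.34. Cd247 had 3.15 ± 0.522 CPM in saline and 1.24 ± 0.403 CPM in mAb-DXd/IMQ (SD, n = 4) without overlap, at an edgeR p with Benjamini-Hochberg adjustment of 0.0574. It was called by DESeq2 and by edgeR's newer quasi-likelihood method. Of the 17 activating signaling genes below the receptors, 14 had a log2 fold change below 0, 0 were called by edgeR's quasi-likelihood test, and the median was -0.34. The kinase Syk, which docks on the phosphorylated ITAM, had -0.40, the phospholipase Plcg2, the most abundant, -0.59, the exchange factor Vav3 -0.63, and the kinase Fgr 0.04. Vav3 was called by DESeq2 and, in edgeR, without the filter on low counts. All 5 inhibitory genes had log2 fold changes below 0 and 0 were called by edgeR's quasi-likelihood test. Inpp5d, the lipid phosphatase SHIP1 that Fcgr2b recruits, had -0.49, the phosphatase Ptpn6 -0.11, and the adaptor Dok1, the most abundant, -0.27, equal to the median of the list. Activating and inhibitory signaling genes thus had medians on the same side of 0.

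None of the effector and recycling genes was called by edgeR's quasi-likelihood test. There was no call among the 5 subunits of the phagocyte oxidase (median log2 fold change -0.13, Cyba 0.16, Cybb -0.29), nor among 6 genes that restrain antibody-dependent phagocytosis (median -0.25, Cd24a -0.05, Sirpa -0.41). With a tumor left out, log2 fold changes ran from 0.053 to 0.24 for Cyba, -0.53 to -0.085 for Cybb and -0.58 to -0.19 for Sirpa. Among 10 genes for the partner of Fcgrt and for endosomal recycling, 0 were called and the median was -0.19. B2m, the light chain of the neonatal Fc receptor and of MHC class I, had 2156 ± 137 CPM in saline and 2328 ± 398 CPM in mAb-DXd/IMQ (SD, n = 4, log2 fold change 0.11, edgeR with Benjamini-Hochberg adjusted p = 0.753). Rab25 had 1.12 (edgeR with Benjamini-Hochberg adjusted p = 0.200) and Rab11fip2 -0.70, both with groups that did not overlap and neither called, although DESeq2 called Rab11fip2.

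None of 16 known regulators of Fc gamma receptor expression was called by edgeR's quasi-likelihood test, with a median log2 fold change of -0.27. At an unadjusted p under 0.05 in that test there were 6 of 16, against 18.9% of all tested genes. Lower without overlap were 5 of 16, against 7.1% of all tested genes. For 1 regulator the limit on edgeR's Benjamini-Hochberg adjusted p was met and that on the fold change was not. Spi1, which encodes PU.1, had -0.12, and Ifngr1, a chain of the interferon gamma receptor, 0.06. Ifng, which raises Fcgr1, had 2.31 ± 0.696 CPM in saline and 1.14 ± 0.356 CPM in mAb-DXd/IMQ (SD, n = 4) without overlap, a log2 fold change of -1.02 (edgeR with Benjamini-Hochberg adjusted p = 0.145). Cebpb, the most abundant of the list per kilobase over all 8 tumors (Irf1 was higher in mAb-DXd/IMQ), had -0.59 and was called by DESeq2.

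**Figure D5:**
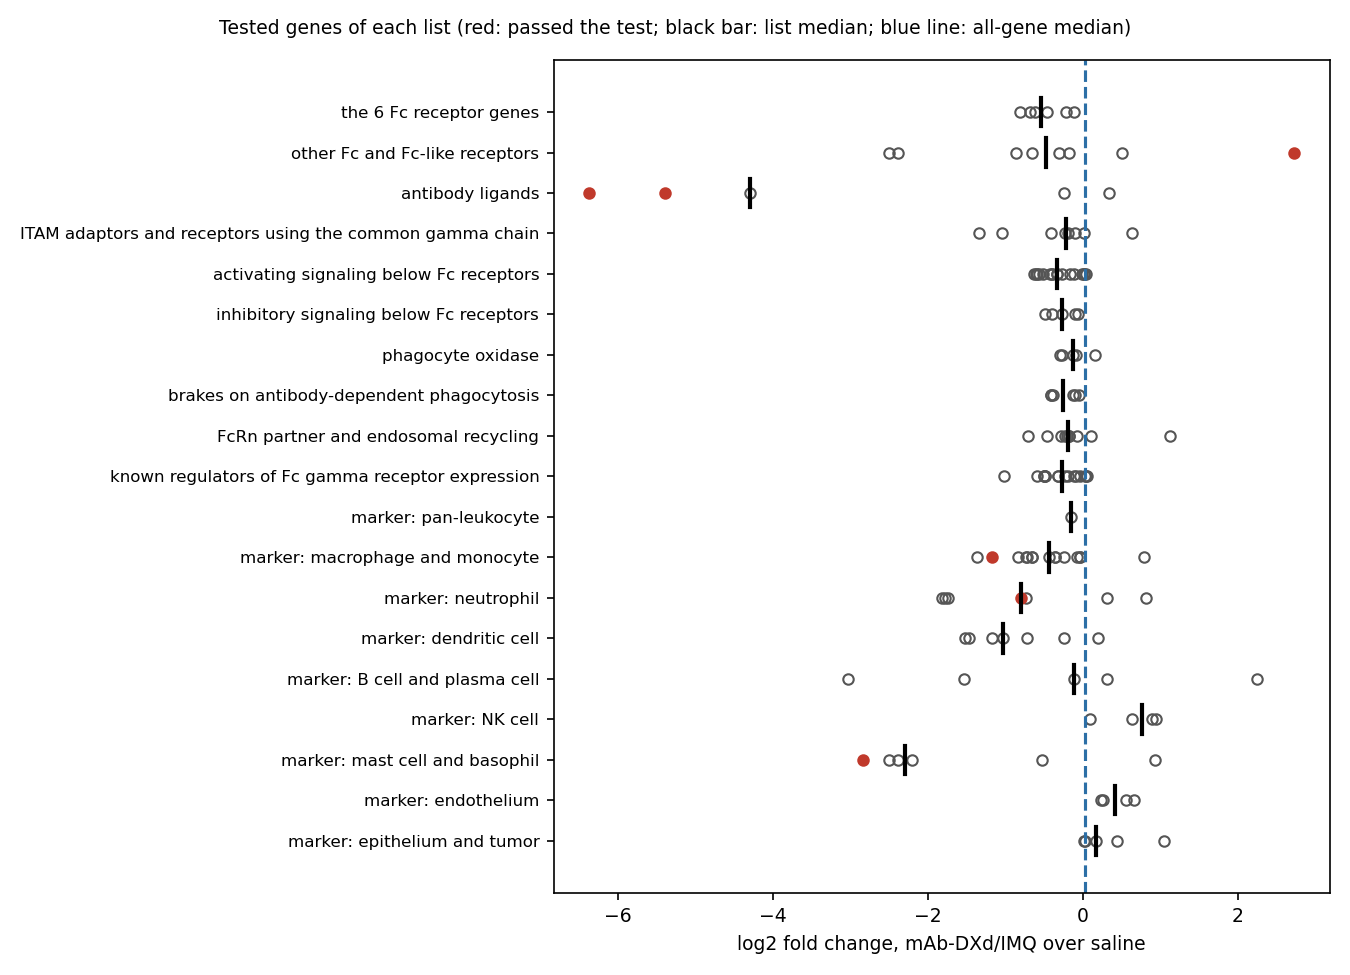
Log2 fold change of mAb-DXd/IMQ over saline (horizontal axis) for the tested genes of each list (circles, filled red where the gene was called), with a black bar for the median of the list and a blue dashed line for the median of all tested genes. The 6 Fc receptor genes lie between -0.81 and -0.11, and the antibody genes reach -6.38.

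The tumor-to-tumor pattern of each member was compared with that of 14640 tested genes with a mean of at least 1 CPM, as the mean absolute difference of log2 CPM centered on its mean over 8 tumors. Among the most alike were Cd86 and Prcp for Fcgr1 (0.05 and 0.07), Rassf2, March1 and Cd33 for Fcgr2b (0.09, 0.09 and 0.10), Plcl2, Ctsc and Rab3il1 for Fcgr3 (0.06, 0.08 and 0.08), and Csf2rb2 and Gng2 for Fcgr4 (0.08 and 0.09). The most alike were P2rx4, Tpp1 and Cmtm3 for Fcer1g (0.06, 0.06 and 0.06) and Peli2, Ccr1 and Fli1 for Fcgrt (0.11, 0.11 and 0.11). The median difference over all genes was between 0.26 for Fcer1g and 0.46 for Fcgr2b. Among the members, Fcgr2b and Fcgr4 were the most alike (0.10) and Fcgr2b and Fcer1g the least (0.33).

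The Fcgr genes are related in sequence, and reads from a shared stretch could be counted for either gene. Of the distinct 100-base windows of the longest protein-coding transcript, 100% were found in no other gene for Fcgr1, Fcgr4, Fcer1g and Fcgrt, 96.5% for Fcgr3 and 94.3% for Fcgr2b. Fcgr2b and Fcgr3 shared 44 windows, and the other shared windows of Fcgr2b were found in genes elsewhere, among them Cplx2 and Gm47409. The longest run that they share is 129 bases of coding sequence over 2 exons, at chr1:170966674-170968081 in Fcgr2b and chr1:171054167-171057792 in Fcgr3 (GRCm38, both on the minus strand), while every other pair of Fcgr genes shared at most 14 bases.
Fcgr2b and Fcgr3: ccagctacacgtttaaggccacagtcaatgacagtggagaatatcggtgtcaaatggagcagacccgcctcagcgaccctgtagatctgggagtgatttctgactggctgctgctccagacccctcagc

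Genes on the other strand or inside a member could also add reads, since the labels do not say whether the libraries kept strand. The antisense gene Gm38204 overlapped Fcgr2b by 3175 bases and had 70 counts over 8 tumors, and Gm45669 overlapped Fcgrt by 5331 bases and had 17 counts. Mir6546 within Fcgr3 had 4 counts and Gm26110 within Fcgr4 had 53 counts. Each came to at most 0.158% of the counts of the member.

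None of 49 other tested genes within 100 kb of a member was called by edgeR, and DESeq2 called Gm20627. Around Fcgr1 their log2 fold changes ran from -0.49 (Gm20633) to 1.43 (Gm20627), and around Fcgrt from -0.36 (Prr12) to 0.61 (Rcn3). The lowest was -0.65 (Fcrlb) around Fcgr2b, Fcgr4 and Fcgr3 and -0.18 (Ppox) around Fcer1g.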

How the data were processed

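The values used are raw gene counts that the authors deposited for 8 tumors, 4 in each group. The submitters' processing notes name HISAT2, HISAT and TopHat2 and the build mm39, without versions, whereas the coordinates in the table equaled those of GENCODE M21 (GRCm38) for 53499 of 54409 shared gene identifiers. The counting tool, annotation and strand setting are not given in the sources used here. Poly(A) RNA was sequenced. Every column of tumor counts was used, and no pair of tumors of a group agreed within sampling noise.

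Groups were taken from the sample labels. Counts were filtered with filterByExpr (minimum count 10, minimum total 15), scaled with TMM factors and tested in edgeR 4.0.16 (R 4.3.3) with the quasi-likelihood F-test, without covariates, over all 18511 genes with Benjamini-Hochberg adjustment. CPM and levels per kilobase were computed with the gene lengths of the table, and log2 CPM with a prior count of 2. The test was tried on simulated data with known answers before it was run. Alternatives were other scalings, filters, DESeq2 1.42.0, limma-voom (limma 3.58.1), glmTreat and edgeR's newer quasi-likelihood method. Others were the adjusted p without the fold limit, a gene length correction, the replicate number as a block, and leaving out each tumor. Figures were drawn with matplotlib 3.10.9 in Python 3.11.15, and sequences were read from the RefSeq promoter table and the GENCODE M21 transcripts.

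The members and the lists were chosen with earlier results of these data known. Named genes are the members; from each list the genes called (the 3 largest where more were), the most abundant per kilobase, and those with the largest positive and negative log2 fold change; B2m, Tyrobp, Syk, Inpp5d, Ptpn6, Spi1, Ifng, Ptprc, Csf1r, Adgre1 and Ighg1; genes among the 3 most alike in pattern to each member; and neighbors within 100 kb, of which the text names those that overlap a member and extremes of the log2 fold change.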

Additional observations from a re-analysis of the deposited data

Results flagged for a closer look

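The 6 members and the genes named from the lists were checked in each group for a tumor whose CPM lay far from the other 3, by a gap whose share of the range of the group exceeded Dixon's 95% critical value. Of 114 groups (57 genes) 10 met this, and chance marks about 1 in 20 groups. None was a group of the 6 Fc receptor genes. In saline, tumor 2 was high for Fcrl6 (1.40 CPM against 0.251 to 0.385, gap 0.883), tumor 4 for Igkc (128 against 3.37 to 23.9, gap 0.834) and Mzb1 (5.30 against 0.203 to 0.564, gap 0.929), and tumor 1 for Prf1 (32.9 against 12.8 to 14.9, gap 0.898). In mAb-DXd/IMQ, tumor 3 was high for Sirpa (170 CPM against 121 to 127, gap 0.883), Ptprc (193 against 119 to 125, gap 0.910), Itgax (128 against 64.2 to 66.8, gap 0.959) and Syk (46.6 against 34.8 to 35.2, gap 0.965). In the same group tumor 1 was high for Ifngr1 (120 against 83.0 to 86.7, gap 0.901) and low for Csf3r (14.996 against 21.8 to 22.9, gap 0.870). The high Ptprc of mAb-DXd/IMQ tumor 3 lowers the ratios of the receptors to Ptprc in that tumor.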

How the results depend on the processing

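The direction held under all 21 alternatives for Fcgr1, Fcgr2b, Fcgr3, Fcgr4 and Fcgrt. Among these, glmTreat and the adjusted p without the fold limit kept the fold changes of the main fit, so their direction could not turn. Past the threshold were Fcgr2b with DESeq2 (-0.82), Fcgr4 with DESeq2 (-0.69) and without the filter on low counts (-0.69), and both without saline tumor 1 (-0.99 and -0.83). With each tumor left out in turn, log2 fold changes ran from -0.41 to -0.05 for Fcgr1, -0.99 to -0.52 for Fcgr2b, -0.65 to -0.26 for Fcgr3, -0.83 to -0.53 for Fcgr4, -0.23 to 0.075 for Fcer1g and -0.85 to -0.12 for Fcgrt. Fcer1g reversed only without saline tumor 2. Over all tested genes 197 were called, against 358 without the filter (31459 genes tested), 787 with DESeq2, 7 with glmTreat, 120 with a gene length correction, 12 with that and the replicate block, and 10 to 203 with a tumor left out. The lowest of these were 10 without saline tumor 3, 11 without saline tumor 4 and 12 without mAb-DXd/IMQ tumor 4, and 76, 88 and 111 were called without mAb-DXd/IMQ tumors 2 and 3 and saline tumor 2. The split of higher to lower calls was 145 to 73 with upper-quartile factors and 118 to 76 with library size alone, beside 101 to 96. Same-numbered tumors are from different mice, and their deviations correlated at -0.170, -0.0546, 0.0794 and -0.0672, so that the numbers do not pair them. A replicate block left 14 calls, none of a member, with log2 fold changes of -0.73 for Fcgr2b, -0.65 for Fcgr4 and -0.44 for Fcgrt. The log2 difference of the activating to inhibitory ratio, 0.27, ran from 0.20 to 0.34 with a tumor left out and was 0.079 with Fcgr4 alone over Fcgr2b. Members lower without overlap numbered 2 to 5 with a tumor left out (5 without saline tumor 1, where 10.4% of all tested genes were lower without overlap), and members with the smaller SD in mAb-DXd/IMQ 5 to 6, both counts being chosen after seeing the data. Of 72 other named genes, 13 reversed somewhere. With a tumor left out these ran from -0.39 to 0.022 for Tyrobp, -0.20 to 0.17 for Fgr, -0.15 to 0.046 for Cd24a, -0.00087 to 0.20 for B2m, -0.087 to 0.20 for Ifngr1, -0.39 to 0.61 for Lyz2, -0.12 to 0.29 for Itgax, -0.0020 to 0.57 for Cdh5, -0.0097 to 0.26 for Krt18, -0.27 to 0.076 for Spi1, -0.24 to 0.0056 for P2rx4, -0.16 to 0.096 for Tpp1 and -0.11 to 0.15 for Cmtm3. Lyz2 and Cmtm3 also reversed with upper-quartile factors (0.00805 and 0.040), limma-voom (0.38 and 0.017) and the replicate block (0.34 and 0.017), Lyz2 with that block and the gene length correction (0.26), and Cmtm3 with library size alone (0.025). Of the called list genes, all 6 lost the call with the gene length correction, the replicate block, both together, and glmTreat, Cd163 and Csf3r also with upper-quartile factors, these and Igkc with library size alone, and Cpa3, Ighg1 and Igkc with limma-voom. Of the 72 genes 14 gained a call, 27 calls in all: 13 genes with DESeq2 (Cd247, Cd33, Cebpb, Gm20627, Gng2, March1, Mrc1, Ms4a2, Pax5, Prf1, Rab11fip2, S100a9 and Vav3), 5 without the filter, 2 with the newer quasi-likelihood method, 6 without saline tumor 1 (Clec9a among them) and 1 without saline tumor 2. The cause was not tested.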
